A study of Mus musculus with 6 samples.

Results

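The genes described here are 10 components of the Notch pathway, chosen by name: the receptors Notch1, Notch2 and Notch3, the ligands Dll1, Dll3 and Jag1, and the target genes Hes1, Hes5, Hey1 and Heyl. They are 10 of the 26852 genes measured by RNA sequencing in the midbrain of mouse embryos at E14.5. The conditional knockout (cKO) group, Lmx1b fl/fl;Pitx3-Cre, has both copies of Lmx1b floxed, and Cre expressed from the Pitx3 locus removes this LIM-homeodomain transcription factor from mesodiencephalic dopaminergic neurons after they leave the cell cycle. The control group, Lmx1b wt/wt;Pitx3-Cre, has intact Lmx1b. Both groups carry the Pitx3-Cre allele in place of a Pitx3 allele, so the comparison is between 2 genotypes that share Cre and a reduced Pitx3 dose. Both are on a C57Bl/6 background. Each group had 3 libraries, and each library was made from pooled embryos. Cells other than Pitx3-expressing neurons keep Lmx1b in either group, and these cells make up part of the dissected tissue.

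Notch receptors are single-pass membrane proteins that are cut after a Delta or Jagged ligand on a neighbouring cell binds them. The released intracellular domain enters the nucleus, joins the DNA-binding protein RBPJ and switches on Hes and Hey genes, whose products repress proneural genes and the ligand Dll1. In the embryonic brain this exchange between neighbours is known for keeping radial glia of the ventricular zone as progenitors while other cells become neurons, and Notch3 and Heyl are also known from the mural cells of blood vessels.

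The deposited table holds a mean per group of counts divided by a size factor. The whole read counts of the 3 libraries behind each mean were recovered for 26372 genes, 98.2% of the table, and for 10 of the 10 Notch genes. The recovered libraries are called a, b and c in order of falling size factor, since they could not be tied to sample numbers, and they held between 20782935 and 25240920 recovered reads. A normalized count below is a recovered count divided by the size factor of its library. Lmx1b itself had 1257, 1401 and 1455 normalized counts in cKO and 1368, 1352 and 1474 in control, so the total count of this gene over all midbrain cells did not check the labels (exact permutation test, two-sided, p = 0.8). The 9 midbrain dopamine markers, which include Th and Pitx3, were present in all libraries, with summed levels of 10044 to 10453 in cKO and 10424 to 12325 in control. Of these 9, 3 had an unadjusted p under 0.05, against 2.8% of all tested genes, all lower in cKO. Pitx3, the transcription factor whose locus drives Cre in both groups, had 112, 162 and 150 normalized counts in cKO and 177, 180 and 198 in control (log2 fold change -0.41, SE 0.18, adjusted p = 1.00 in limma), and its log2 fold change was -0.24 without cKO a. En1, a homeobox gene of the midbrain, had 940, 1058 and 1147 normalized counts in cKO and 1277, 1326 and 1540 in control (log2 fold change -0.40, SE 0.094, adjusted p = 1.00 in limma). The unadjusted p was under 0.05 in 6 of the 6 fits that leave out a library for En1, but in 2 of 6 for Pitx3 and for Ddc, the remaining gene of the 3, which was at -0.11 without control c. Library cKO a stood apart in the collagen genes Col1a1, Col1a2 and Col3a1 and in Lum, and cKO c more widely in bone and connective tissue genes. The 8 listed genes of this kind were each highest in cKO c, their summed level was 2247 in cKO a, 748 in cKO b and 13986 in cKO c against 720.5 to 825 in control, and Col1a1, a chain of type I collagen, had 532, 14.8 and 6097 normalized counts in cKO a, b and c against 10.6 to 11.5 in control. In cKO a, Ibsp and Sp7 had 1 read each, and Runx2 was at 16.9 normalized counts against 9.61 to 28.3 in control. Library cKO a was also the lowest for 6 of the 10 Notch genes. The part of this bone and collagen signal in the results was not tested. Values without cKO a or without cKO c are given below for some of the Notch genes.

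No Notch gene passed the test between the genotypes after adjustment. With limma, 0 of the 10 had an adjusted p under 0.05 (Benjamini-Hochberg over 16697 tested genes; 0% of all tested genes passed), and the adjusted p of each was 1.00. At an unadjusted p under 0.05, 1 of 10 passed, namely Hes5, against 2.8% of all tested genes, 467 in number. The 3 cKO and 3 control libraries did not overlap for 2 of 10, Notch3 and Hey1, both lower in cKO, against 7.65% of all tested genes. The log2 fold change of cKO over control was below 0 for 7 of 10 genes, against 50% of all tested genes, with Notch2 among the 7 at a value near 0, and its median was -0.09 for the Notch genes and -0.0001 for all tested genes. Without cKO a the median of the Notch genes was -0.02. In whole midbrain, fewer cells of a type and less RNA per cell cannot be told apart. The count at an unadjusted p under 0.05 rested on single libraries. Without cKO a, b or c it was 0, 3 or 1 of 10, against 2.86%, 3% or 3.46% of all tested genes, and without control a, b or c it was 0, 1 or 0 of 10, against 3.81%, 3.47% or 2%. Without cKO a, b or c, 2, 4 or 3 of the 10 did not overlap, against 17.6%, 17.5% or 17.2% of all tested genes, and without control a, b or c it was 3, 3 or 2 of the 10, against 19.3%, 17.2% or 14.2%. With 3 libraries against 3, the smallest p that the exact permutation test allows is 0.1.

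**Figure D1:**
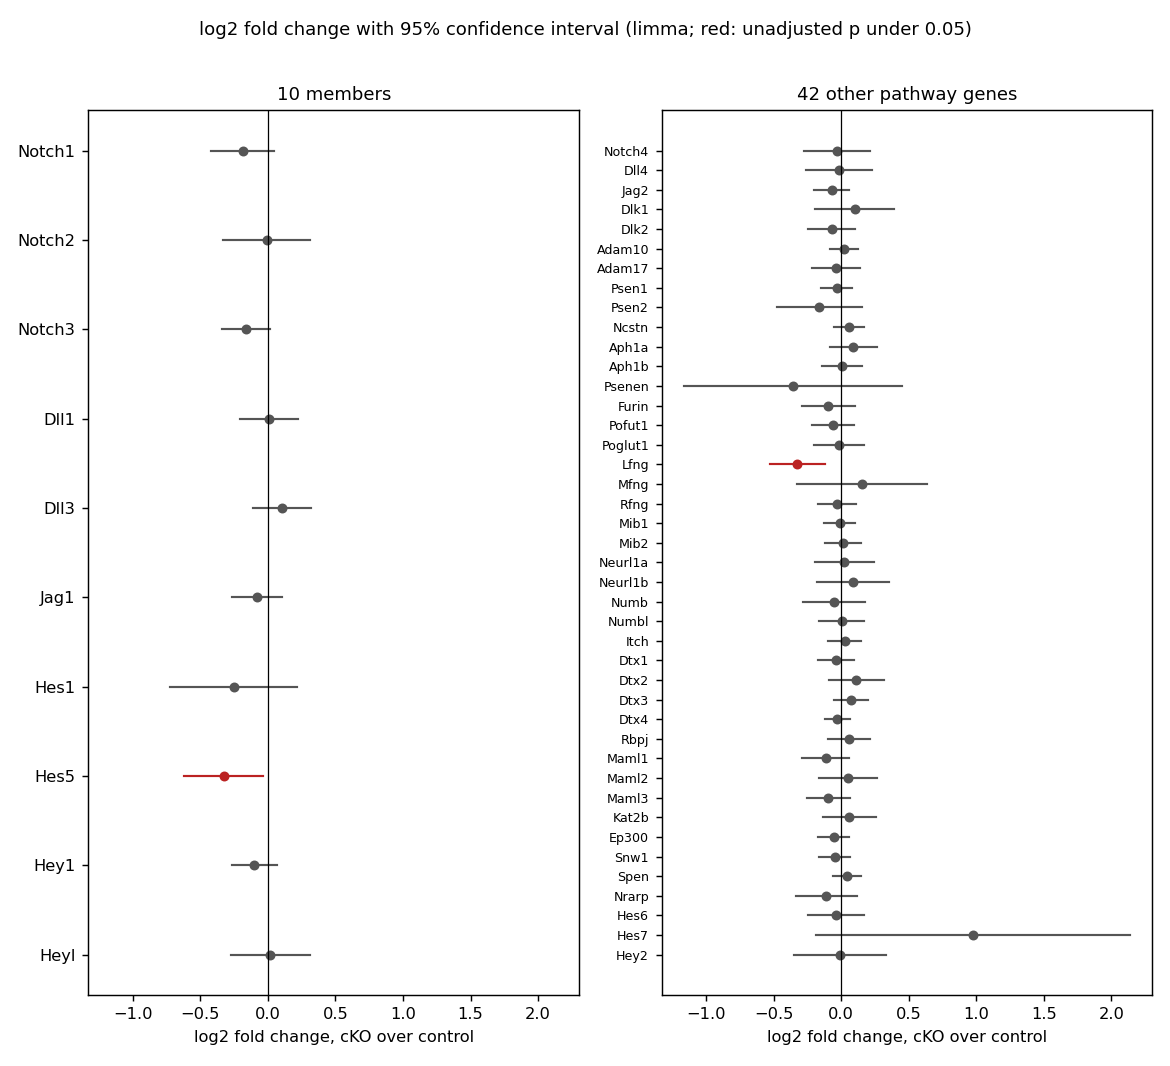
Log2 fold change of cKO over control (x axis) for the 10 Notch genes (left) and 42 of the other genes of the pathway (right), as points with 95% confidence intervals from limma, with genes at an unadjusted p under 0.05 in red. Hes5 on the left and Lfng on the right are the genes in red, at -0.33 for both, and the interval of every other gene shown contains 0.

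Among the receptors, Notch1 (ENSMUSG00000026923, GRCm38 chr2:26457903-26516663, minus strand) is required for progenitor maintenance in the neural tube. It had 2325, 3170 and 3088 normalized counts in cKO a, b and c and 3559, 3029 and 3054 in control a, b and c. Library cKO a was the lowest and control a the highest, and the other 4 libraries lay between 3029 and 3170, so the groups overlapped. The means were 2861 ± 466 in cKO and 3214 ± 299 in control (SD, n = 3), and the log2 fold change was -0.19 (SE 0.11, 95% interval -0.42 to 0.05). Its unadjusted limma p was 0.105. Without cKO a the log2 fold change was -0.04 and that p was 0.629, without control a they were -0.11 and 0.342, and without cKO b -0.27 and 0.0402.

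Notch3 (ENSMUSG00000038146, chr17:32120820-32166852, minus strand), the receptor also known from pericytes, had 2247, 2809 and 2828 normalized counts in cKO and 2951, 2837 and 2967 in control. The 3 control libraries lay above the 3 cKO libraries, but the lowest control library exceeded the highest cKO library by a ratio of 1.003 only, and cKO a was far below the other libraries. The means were 2628 ± 330 and 2918 ± 71.0 (SD, n = 3), with a log2 fold change of -0.16 (SE 0.081, 95% interval -0.34 to 0.01) and an unadjusted limma p of 0.0677. Without cKO a the log2 fold change was -0.05 and that p 0.415, whereas p was 0.0353 without cKO b and 0.0282 without cKO c. The 8 mural cell markers, which include Pdgfrb and Rgs5, had summed levels of 6387 to 6751 in cKO and 5893 to 6438 in control, and 0 of the 8 had an unadjusted p under 0.05.

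Notch2 (ENSMUSG00000027878, chr3:98013527-98150361, plus strand), the remaining receptor of the set, had 754, 1106 and 1104 normalized counts in cKO and 1137, 909 and 865 in control. The lowest library was again cKO a and the highest control a, while the other cKO libraries exceeded the other control libraries. The means were 988 ± 203 in cKO and 970.3 ± 146 in control (SD, n = 3). For Notch2 the log2 fold change, which weights the libraries, had the opposite sign to these means, at -0.0080 (SE 0.15, 95% interval -0.33 to 0.31), and it was 0.19 without cKO a and 0.12 without control a. Of the level of the 3 receptors per kb of exons, Notch3 made up 52.7% ± 1.42 in cKO and 53.4% ± 2.48 in control (SD, n = 3), Notch1 32.5% ± 0.578 and 33.3% ± 1.22, and Notch2 14.8% ± 0.921 and 13.3% ± 1.27. For each of the 3 receptors the shares of the cKO and control libraries overlapped.

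**Figure D2:**
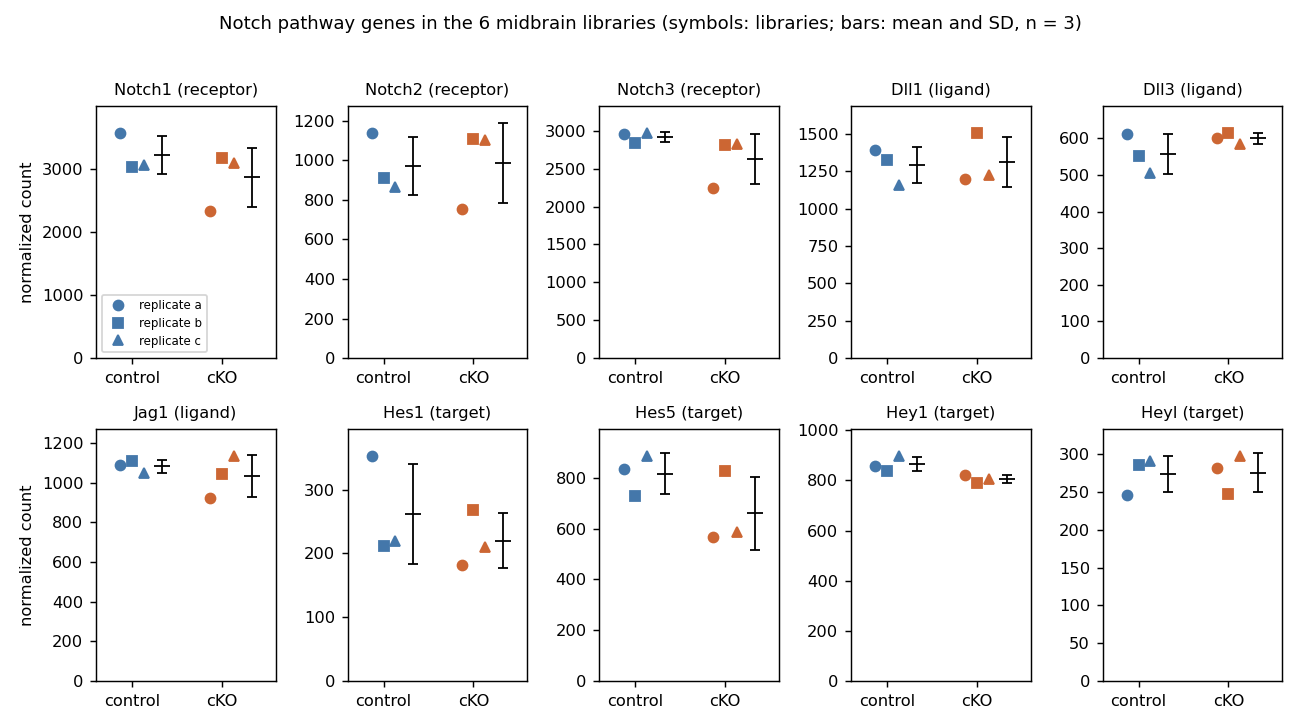
Normalized counts (y axis, from 0) of the 10 Notch genes in the 3 control and 3 cKO libraries, with symbols for replicates a, b and c and bars for mean and SD (n = 3). The cKO a circle is the lowest of 6 points for 6 of the 10 genes, and only the Notch3 and Hey1 panels show groups that do not overlap.

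None of the 3 ligands had an unadjusted p under 0.05. Dll1 (ENSMUSG00000014773, chr17:15367354-15376872, minus strand), the Delta ligand that newborn neurons present to neighbouring progenitors, had 1202, 1505 and 1226 normalized counts in cKO and 1390, 1328 and 1157 in control. The highest library was cKO b and the lowest control c. Its means of 1311 ± 168 and 1291 ± 121 (SD, n = 3) gave a log2 fold change of 0.01 (SE 0.098, 95% interval -0.20 to 0.22). Dll3 (ENSMUSG00000003436, chr7:28293553-28302238, minus strand) is a divergent Delta protein that acts on Notch in the same cell. It had 601, 614 and 583 normalized counts in cKO and 613, 551 and 505 in control, so control a lay among the cKO libraries and the other 2 control libraries below them. For Dll3 the log2 fold change was 0.10 (SE 0.098, 95% interval -0.11 to 0.32), and it ranged from 0.04 without control c to 0.18 without control a.

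Jag1 (ENSMUSG00000027276, chr2:137081456-137116644, minus strand), a ligand of the Jagged class, had 924, 1044 and 1135 normalized counts in cKO and 1092, 1110 and 1049 in control. Both the lowest and the highest library were cKO. Its log2 fold change was -0.08 (SE 0.085), with an unadjusted limma p of 0.371 and an exact permutation p of 0.6, and without cKO a it was 0.0054. The ratio of Dll1 to Dll3 per kb of exons was 1.48 ± 0.160 in cKO and 1.57 ± 0.0512 in control (SD, n = 3), and the cKO range of 1.35 to 1.66 contained the control range of 1.53 to 1.63.

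Of the target genes, Hes5 (ENSMUSG00000048001, chr4:154960923-154962371, plus strand), a basic helix-loop-helix repressor of radial glia, had the lowest log2 fold change of the 10 genes. The window from 250 bases before to 50 bases after its start, chr4:154960673-154960972 on the plus strand of GRCm38.p6 from RefSeq, is shown because it holds the letters GTGGGAA, a core sequence that RBPJ is known to bind, once on each strand, at bases 25 and 168 of the window. Capitals mark these letters.
Hes5 promoter: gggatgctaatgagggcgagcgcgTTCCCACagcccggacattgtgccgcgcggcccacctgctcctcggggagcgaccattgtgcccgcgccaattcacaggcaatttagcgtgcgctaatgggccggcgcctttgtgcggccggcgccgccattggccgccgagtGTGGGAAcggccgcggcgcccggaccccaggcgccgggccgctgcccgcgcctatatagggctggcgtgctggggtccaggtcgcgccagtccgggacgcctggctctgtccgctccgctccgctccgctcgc
Of 32851 such windows in the mouse table, 6.38% hold these letters at least once on either strand and 0.256% hold them at least 2 times. Windows were given for 7 of the 10 Notch genes (Notch1, Notch2, Notch3, Dll1, Dll3, Jag1 and Hes5, with 2 for Dll1), and the Hes5 window was the only one of these 8 with a match. No window was given for Hes1, Hey1 and Heyl, so Hes5 was not compared with another target gene. A match is a description of the letters and not a measured binding site.

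Hes5 had 566, 826 and 587 normalized counts in cKO a, b and c and 836, 727 and 886 in control a, b and c. Libraries cKO a and cKO c lay below the control libraries, while cKO b lay among them, so the groups overlapped. The means were 660 ± 145 and 816 ± 81.1 (SD, n = 3), 19.2% lower in cKO. The log2 fold change was -0.33 (SE 0.13, 95% interval -0.62 to -0.03), with an unadjusted limma p of 0.0317 and an adjusted p of 1.00. The exact permutation test gave p = 0.2. Only 2 of the 6 fits that leave out a library kept an unadjusted p under 0.05: it was 0.148 without cKO a, 0.111 without cKO c, 0.0707 without control a and 0.105 without control c. The direction was the same in all 6, from -0.50 to -0.22. Of the 8 progenitor genes listed, 6 could be recovered, and their summed level was 20202 in cKO a and 22461 to 23610 in the other 5 libraries. Of these 6 genes, 4 were lowest in cKO a, but Sox2 and Pax6 were not. In cKO c, where Hes5 also lay below the control libraries, the sum was 22868. The part of the lower progenitor sum of cKO a in the Hes5 value was not tested.

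Hes1 (ENSMUSG00000022528, chr16:30064384-30067796, plus strand), the related repressor known for its oscillating expression in progenitors, had 183, 268 and 210 normalized counts in cKO and 353, 212 and 220 in control. Control a stood above the other 5 libraries, and the rest of the 2 groups were mixed. For Hes1 the log2 fold change was -0.25 (SE 0.21, 95% interval -0.72 to 0.21), and it was 0.0006 without control a. The 8 genes of dividing cells, which include Mki67 and Top2a, were each highest in control a too, with a summed level of 8607 there against 5836 to 7350 in the other 5 libraries. The part of this in the Hes1 value was not tested. The ratio of Hes5 to Hes1 per kb of exons was 4.47 ± 0.254 in cKO and 4.89 ± 1.25 in control (SD, n = 3).

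Hey1 (ENSMUSG00000040289, chr3:8663359-8667256, minus strand), a Hairy-related repressor of neural progenitors and vessels, had 820, 788 and 806 normalized counts in cKO and 859, 840 and 898 in control. The 3 cKO libraries lay below the 3 control libraries, the nearest pair at a ratio of 1.024. The means were 805 ± 15.8 and 865 ± 29.5 (SD, n = 3), and the log2 fold change was -0.10 (SE 0.076, 95% interval -0.27 to 0.06), with an unadjusted limma p of 0.205 and an exact permutation p of 0.1. Heyl (ENSMUSG00000032744, chr4:123233556-123249875, plus strand), the family member known from vascular mural cells, had 282, 247 and 298 normalized counts in cKO and 246, 285 and 291 in control. Its groups overlapped almost wholly, with a log2 fold change of 0.02 (SE 0.13), an unadjusted limma p of 0.907 and an exact permutation p of 0.9. The 8 endothelial markers summed to 6362 to 6591 in cKO and 6037 to 6693 in control.

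Across genes, the libraries did not differ evenly. Library cKO a was the lowest of the 6 for 6 of the 10 genes (Notch1, Notch2, Notch3, Jag1, Hes1 and Hes5), while 19.1% of all tested genes were lowest there. In this library Notch1, Notch2, Hes1 and Hes5 deviated by -0.37 to -0.36 log2 units from their gene means, whereas Dll3 and Heyl lay above theirs by 0.06 and 0.04. Library control a was the highest for 3 of 10 genes (Notch1, Notch2 and Hes1), against 18.7% of all tested genes, and control c also for 3 (Notch3, Hes5 and Hey1). The summed level of the 10 genes was 9904 in cKO a, 12377 in cKO b and 11866 in cKO c, and 13036, 11827 and 11891 in control a, b and c, so the sums of cKO b and cKO c lay close to those of control b and control c. Notch1 and Notch3 had the highest counts in these sums. In cKO b and cKO c, some genes lay below the control range, as Hey1 in both, and some above, as Dll1 in cKO b. The median log2 fold change of the 10 genes was -0.12 without cKO c and -0.02 without cKO a. Without cKO c, Notch3 was at -0.22, Hes5 at -0.26, Hey1 at -0.10 and Heyl at -0.04.

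**Figure D3:**
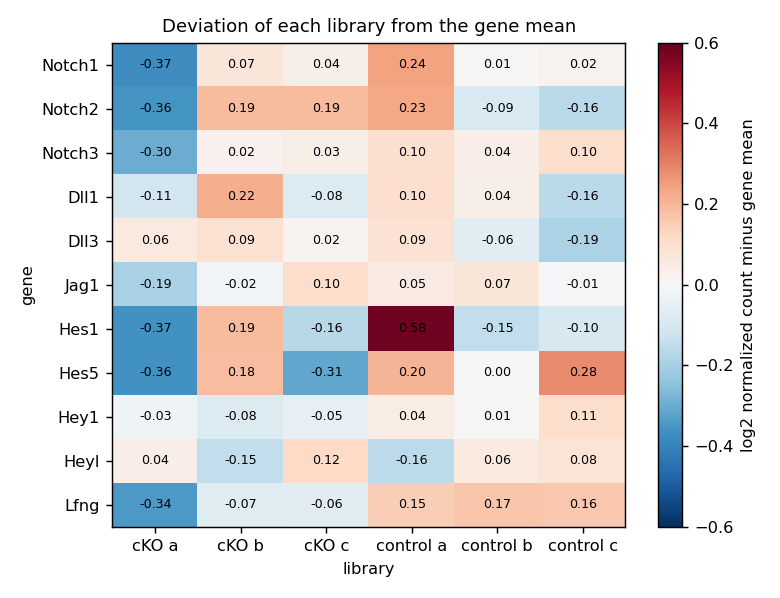
Deviation of each library (x axis) from the mean log2 normalized count of a gene over the 6 libraries, for the 10 Notch genes and Lfng (y axis), printed in each cell and coloured from blue (below) to red (above). The cKO a column is below 0 for all genes but Dll3 and Heyl, and the highest single deviation is 0.58, for Hes1 in control a.

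To compare levels between genes, normalized counts were divided by the length of the merged exons. In control, Hes5 was the highest at 599 ± 59.5 normalized counts per kb (SD, n = 3), followed by Notch3 at 361 ± 8.76, Dll1 at 306 ± 28.6, Hey1 at 265 ± 9.02 and Notch1 at 226 ± 21. Dll3 had 195 ± 18.9, Jag1 186 ± 5.38, Hes1 129 ± 38.8, Notch2 90.0 ± 13.5 and Heyl 53.6 ± 4.76. Hes5 and Heyl were separate from their neighbours in this order in all 6 libraries. The control ranges of Dll1 and Hey1, of Notch1 and Dll3, of Dll3 and Jag1, and of Hes1 and Notch2 overlapped, so their order was not resolved. With the length of the longest transcript the ranks were the same, but the control ranges of Notch3, Dll1, Hey1 and Notch1, at means of 364, 361, 357 and 339 normalized counts per kb, then overlapped between neighbours, and so did those of Jag1 and Hes1, while those of Notch1 and Dll3 and of Hes1 and Notch2 were apart. Exons of Hes5 share 433 bases with Gm20421 and those of Dll1 share 867 with A930024N18Rik, both on the opposite strand. Those of Notch1 share 1068 with 0610009E02Rik and 414 with Gm13568, and those of Notch3 488 with Gm17276, also on the opposite strand. Those of Notch2 share 541 bases with Gm42820 on the same strand. Whether the counting used strand is not given in the sources used here. Gm20421 had 4.23 to 18.3 normalized counts and A930024N18Rik 225 to 260.

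**Figure D4:**
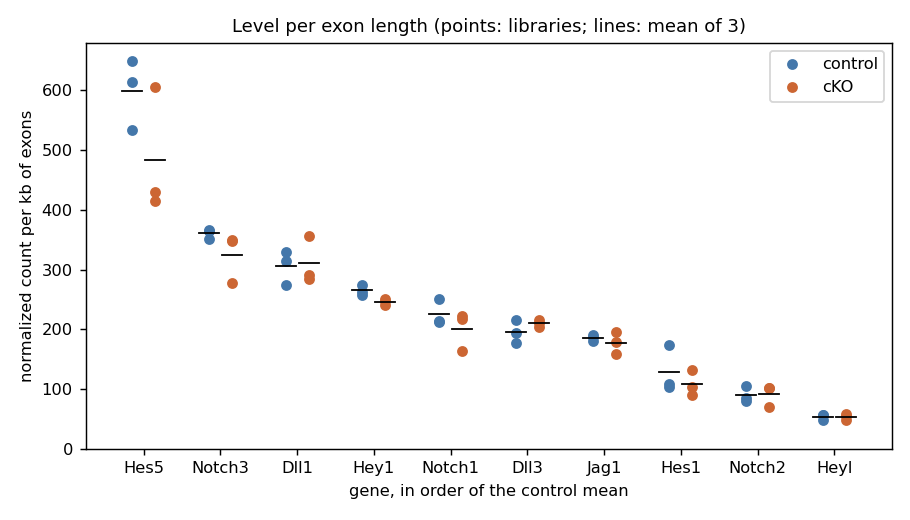
Normalized counts per kb of merged exons (y axis, from 0) of the 10 Notch genes in order of their control mean (x axis), with a point for each of the 3 control and 3 cKO libraries and lines for means. Hes5 lies above all other genes and Heyl below them in each of the 6 libraries.

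A list of 45 other pathway genes was compared in the same fit, of which 44 were recovered and 43 tested. At an unadjusted p under 0.05, 1 of 43 passed, the glycosyltransferase gene Lfng, and 0 of 43 passed after adjustment. Groups did not overlap for 2 of 43, Lfng (lower in cKO) and Ncstn (higher). These counts were not above the shares over all tested genes, 2.8% and 7.65%, so the values of Lfng and Ncstn are given as a description. The log2 fold change was below 0 for 25 genes and above 0 for 18, with a median of -0.02. Lfng (lunatic fringe, chr5:140607320-140615545, plus strand) adds sugars to Notch receptors and so biases them toward Delta ligands. It had 586, 706 and 711 normalized counts in cKO and 824, 833 and 832 in control. The 3 cKO libraries lay below the 3 control libraries, the nearest pair at a ratio of 1.158, and the control libraries differed little among themselves. The means were 667 ± 71.0 and 829 ± 4.96 (SD, n = 3), with a log2 fold change of -0.33 (SE 0.093, 95% interval -0.53 to -0.12), an unadjusted limma p of 0.00454 and an adjusted p of 1.00. The exact permutation test gave p = 0.1, and the unadjusted limma p was under 0.05 in 6 of the 6 fits that leave out a library, with log2 fold changes from -0.37 to -0.23. The start of Lfng is shown for comparison with Hes5, as chr5:140607091-140607390 on the plus strand of GRCm38.p6 from RefSeq, with the same 7 letters in capitals.
Lfng promoter: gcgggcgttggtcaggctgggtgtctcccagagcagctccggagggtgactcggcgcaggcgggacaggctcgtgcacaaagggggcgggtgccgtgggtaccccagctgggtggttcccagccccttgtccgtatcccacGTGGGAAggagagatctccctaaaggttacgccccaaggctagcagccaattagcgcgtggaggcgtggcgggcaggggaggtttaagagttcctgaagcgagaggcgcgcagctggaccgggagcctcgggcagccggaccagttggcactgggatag
The letters occur once in the Lfng window, at base 142 on the plus strand, and 6.38% of all such windows hold them at least once. Windows of the remaining genes of this list were not searched one by one, and Lfng was its only gene with an unadjusted limma p under 0.05.

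Ncstn, which encodes the gamma-secretase subunit nicastrin, had 3192, 3264 and 3183 normalized counts in cKO and 3121, 3157 and 2963 in control. The nearest cKO and control libraries differed by a ratio of 1.008, and the log2 fold change was 0.06 (SE 0.051, unadjusted limma p = 0.262, exact permutation p = 0.1). The other parts of the pathway showed no unadjusted p under 0.05: 0 of 11 genes of ubiquitination and endocytosis, which include Mib1 and Numb, and 0 of 10 nuclear genes, which include Rbpj and the Maml coactivators. Adam10, the protease that makes the first cut after ligand binding, had 4919 to 5235 normalized counts in cKO and 4981 to 5148 in control. Per kb of exons, Rfng, a fringe gene like Lfng, was the most abundant processing gene, and Psenen, a small gamma-secretase subunit, the least abundant, with log2 fold changes of -0.03 (SE 0.064) and -0.36 (SE 0.37). By the same measure the most and least abundant genes of ubiquitination and endocytosis were Dtx3 and Dtx2, with log2 fold changes of 0.07 (SE 0.056) and 0.11 (SE 0.093). The least abundant nuclear gene was the coactivator Maml2, at 0.05 (SE 0.098). Rbpj, the DNA-binding partner of the Notch intracellular domain, had 2475, 2734 and 2282 normalized counts in cKO and 2448, 2486 and 2253 in control. The remaining receptor Notch4 and the ligand Dll4, both known from endothelium, had log2 fold changes of -0.03 (SE 0.11) and -0.02 (SE 0.11).

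Among the other Hes and Hey genes, Hes6, which is known to promote neuronal differentiation, had 1753, 2299 and 1771 normalized counts in cKO and 2082, 1954 and 1890 in control. Hes7, the oscillating gene of the somite clock, was near the lower limit of detection at 10.8 to 22.5 in cKO and 6.19 to 14.4 in control (log2 fold change 0.97, SE 0.53, unadjusted limma p = 0.0926, exact permutation p = 0.2). Hes3 had at most 3 reads in each cKO library and at most 4 in each control library and was not tested. Dner, an atypical Notch ligand of neurons, was above the range in which reads were recovered, and its deposited means were 12363 in cKO and 12678 in control.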

How the data were processed

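RNA from midbrains of E14.5 embryos was sequenced in 3 cKO and 3 control libraries. According to the submitters' processing notes the authors used TopHat 1.0.14, Bowtie2 2.1.0, HTSeq 0.6.1p1 and DESeq 1.10.1 with GRCm38.p4. The deposited values are a signal per gene: the mean of each group's counts after division by size factors. The authors' fold changes and p-values in the same table were not used. Lines that name no gene held 31.8% of the mean counts and were left out.

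A mean of 3 whole counts, each divided by the size factor of its library, takes only certain values. Size factors were inferred from the deposited means themselves. The counts of each library were then recovered for means up to 10000, a search checked on simulated data. Genes above it, which carry much of the signal (70% of normalized counts lay on recovered genes), were not tested. The recovered counts were tested with limma 3.58.1 (voom weights, inferred size factors, R 4.3.3) on genes whose normalized counts averaged 10 or more, with Benjamini-Hochberg adjustment over all of them. Positions and exon lengths came from GENCODE M21 (GRCm38), which matched 26693 of 26852 gene IDs. SDs, exact permutation tests (two-sided) and intervals (95%) cover the spread between libraries of pooled embryos, and p-values measure that spread only. A pathway gene was named with its values if it was one of the 10, had an unadjusted p under 0.05 or groups that did not overlap, had at most 3 reads in every library of a group, or was the most or least abundant of its list per kb of exons. Rbpj, Hes7, Adam10, En1, Pitx3, Ddc, Pax6 and Slc1a3 were named in addition, after their values were seen. Some listed genes that the rule would name are not reported here. The genes and lists were chosen with earlier results of these data known. Alternatives were other scalings, filters, limma-trend with pseudocounts of 1 and 10, and leaving out each library.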

Additional observations from a re-analysis of the deposited data

How the results depend on the processing

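Between 0 and 3 of the 10 Notch genes had an unadjusted p under 0.05 when a library was left out, 2 to 4 did not overlap (2% to 3.81% and 14.2% to 19.3% of all tested genes in the same fits), and 1 to 2 of the other pathway genes had an unadjusted p under 0.05. With scaling by total recovered reads 1 Notch gene did not overlap, since Notch3 then did. Over all genes, 970 had an unadjusted p under 0.05 without a minimum mean, against 467, and 4 had an adjusted p under 0.05 without control a, against 0. Over all alternatives for the log2 fold changes of the 10 genes, Lfng and Ncstn, 126 refits kept direction and side of the threshold, 11 changed direction, 3 passed the threshold and 4 no longer did. Notch2 was at 0.0145 with limma-trend at either pseudocount. Leaving out a library gave -0.10 to 0.19 for Notch2, -0.15 to 0.0054 for Jag1, -0.066 to 0.089 for Heyl, -0.092 to 0.072 for Dll1 and -0.40 to 0.0006 for Hes1. The cause was not tested. No paired analysis was possible because the recovered libraries carry no replicate number that links them between groups. The submitters' labels of the averaged libraries use the same numbers in both groups, and whether equal numbers mark pairs is not given. The 3 libraries per group limit the precision, and the read counts of Hes3 and Hes7 are low.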

Other observations

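Neurog2, a proneural gene of the kind that Hes and Hey proteins are known to repress, had 594, 1403 and 733 normalized counts in cKO and 839, 787 and 811 in control. Library cKO a was the lowest and cKO b the highest, so the groups overlapped, and the log2 fold change was 0.05 (SE 0.23). It ranged from -0.31 without cKO b, where the unadjusted limma p was 0.0177, to 0.32 without cKO a, so its direction rested on single libraries. Atoh1, a proneural gene of the rhombic lip, was at 0 in the 3 cKO libraries and at 74.3, 0 and 2.16 in control, so its signal came almost wholly from control a.

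The 6 recovered progenitor genes had log2 fold changes below 0 for 3 and above 0 for 3, with a median of -0.02 and the highest value, 0.24 (SE 0.15), for Pax6, which was at 0.05 without control c and at 0.38 without control b. The other listed progenitor genes, Fabp7 and Vim, were above the range in which reads were recovered, and their deposited means were 12594 and 10031 in cKO and 13725 and 11056 in control. Of the 6, only Slc1a3, the glutamate transporter of radial glia, had an unadjusted p under 0.05, against 2.8% of all tested genes. It had 3972, 4093 and 4615 normalized counts in cKO and 5171, 4404 and 5103 in control. The groups overlapped, and the log2 fold change was -0.21 (SE 0.073, unadjusted limma p = 0.0134, adjusted p = 1.00, exact permutation p = 0.2). Its unadjusted p was under 0.05 in 3 of the 6 fits that leave out a library.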
